A study of Caenorhabditis elegans with 4 samples.

Results

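The sites described here are the NHR-23 binding regions that the authors' combined peak list places on the X chromosome of Caenorhabditis elegans. The list holds 1239 rows for X, and after 10 rows repeating the same start and end were dropped, 1229 distinct regions remained of 6142 in the nuclear genome (20.0%, exact 95% binomial interval 19.0 to 21.0). Chromosome membership alone picked them from the list, and no measured value entered that rule. Earlier results of these data were known when the members were chosen. Each region carries a peak number, and a low number was read as a strong site. All positions are in WormBase build WS220. The larvae were L3 hermaphrodites kept at 20 °C, and 2% formaldehyde was the crosslinker.

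The worms, strain OP43, carried the allele unc-119(ed3) and the transgene wgIs43, in which nhr-23 is joined to the tags TY1, EGFP and FLAG and which also holds unc-119. The transgene went in by bombardment, and its product is NHR-23 tagged with GFP. Every sample of the series comes from this strain, and none lacks the transgene. Chromatin was immunoprecipitated with an anti-GFP antibody in 2 ChIP replicates, and the 2 matching Input samples were not analysed here. The labels do not say whether the replicates were separate cultures, so the spread between them may be technical. Read depth is unknown, since the lists give peaks and not read counts.

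NHR-23 is a nuclear hormone receptor related to Drosophila DHR3 and to the mammalian ROR receptors. It is required for the moults that end each larval stage, and its expression rises and falls with the moulting cycle. The X chromosome is set apart from the autosomes in worms: hermaphrodites carry a pair of X chromosomes, and a condensin-like dosage compensation complex lowers transcription from both. The autosomes have gene-dense centres and repeat-rich arms, a division that is weaker on X.

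Many of the strongest NHR-23 sites lay on X. Of the 100 combined regions with the lowest numbers, 31 lay on X (exact 95% interval 22.1 to 41.0), and of the first 50, 17 did, 34%. Chromosome III followed with 23 of the first 100, chromosome I had 16, chromosomes II and IV had 12 each and chromosome V had 6. Further down the list the X portion came close to the 20.0% of all sites, at 21.1% of the first 500 numbers and 20.2% of the first 1000. Taken alone, replicate 1 had 25 of its first 100 regions on X and replicate 2 had 30. As a share of each chromosome's own sites, 2.52% of X sites were among the first 100, against 0.619% to 2.19% on the 5 autosomes. In replicate 1 alone X came second by this measure. With the chromosome as the unit this difference did not pass (exact two-sided permutation p = 0.333, adjusted p = 0.467). The cut at the first 100 was added after the data were seen. At the planned cut of the strongest 500, X came second, with 8.62% of its sites beside 7.43% to 9.24% on single autosomes. A set of 6 chromosomes allows no p below 0.167, so no X comparison made over chromosomes could pass 0.05.

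The 20 strongest X sites stood near the top of both replicates. The first, from 15841025 to 15841400, was combined number 8, with number 7 in replicate 1 and 9 in replicate 2. The second, from 11093772 to 11094371, was combined number 10 and carried numbers 12 and 14. The third, from 5841051 to 5841423, was combined number 17 with numbers 13 and 21. These sites lay far apart on the chromosome and had close numbers in both replicates. The region from 6296259 to 6296811 followed with replicate numbers 22 and 20, and then the region from 11937201 to 11937746 with 24 and 27. Those from 2996824 to 2997414 and from 9465537 to 9466069 were lower in replicate 2 (numbers 47 and 46) than in replicate 1 (14 and 23). All 20 were within the first 116 of replicate 1 and within the first 82 of replicate 2, and the replicate peak centres lay a median of 18.5 bp and at most 49 bp apart. Low numbers in both replicates were largely built in. The 20 were picked by combined number, and the combined list came from these replicates.

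Some of these 20 sites ranked higher in one replicate than in the other. The regions from 11064652 to 11065233 (numbers 116 and 18) and from 8477361 to 8477799 (109 and 30) were stronger in replicate 2. The regions from 5429289 to 5429752 (30 and 82) and from 2242850 to 2243146 (28 and 72) were stronger in replicate 1. The 20 sites were spread over 13 of the 1 Mb bins of X. In 6 cases another X site lay within 2 kb, and in the other 14 the nearest was up to 24.3 kb away, with a median of 4476 bp over all 20. Over all X sites, 47.2% had another within 2 kb, beside 39.4% to 46.2% on single autosomes. The 20 strongest were thus found both in close company and alone. Their share with another site within 2 kb was below that of all X sites, a difference that was not tested.

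The very strongest X sites were also wide. The commonest width in the combined list was 380 bp, and 17 of the 20 strongest X sites were wider, up to 790 bp. Over all X sites, 67 (5.45%, 4.25 to 6.87) were wider than 380 bp, against 3.08% of all nuclear regions and 2.48% (2.07 to 2.96) of those on autosomes. No autosome reached the X value, the range being 1.71% on chromosome III to 3.30% on II (exact permutation p = 0.167, the smallest possible; adjusted p = 0.292). Of the 67 wide X sites, 63 belonged to the strongest 25% of the combined list. In contrast, the 713 X sites of exactly 380 bp included 7 from that part. The 449 narrower ones had a median combined number of 1368 and contributed 252. Width and strength were therefore not in simple proportion: narrow sites were strong far more often than those of the common width. The same pattern was seen on the autosomes, so it was not particular to X. In the strongest 25% were 94.0% of wide X sites, 0.982% of those of 380 bp and 56.1% of the narrower ones. The autosomal shares were 84.4%, 0.693% and 57.3%.

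The difference in width was largest at the top of the list. Among the first 100 combined regions, 20 of 31 on X were wider than 380 bp (64.5%, 45.4 to 80.8), compared with 17 of 69 on autosomes (24.6%, 15.1 to 36.5). The median width of these regions was 464 bp on X and 304 bp on autosomes. Both replicates showed the same order in their own lists, each against its own commonest width. In the first 100 of replicate 1, 8 of 25 X regions exceeded 384 bp (32%) and 6 of 75 autosomal ones did (8%). In the first 100 of replicate 2, 17 of 30 X regions exceeded 364 bp (56.7%) and 14 of 70 autosomal ones did (20%). With each replicate's best 6142 regions the shares were 1.01% on X and 0.263% on autosomes in replicate 1, and 2.52% and 0.774% in replicate 2. Width is reported as listed and not as the extent of binding, because the settings of the peak caller are not known here.

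**Figure D1:**
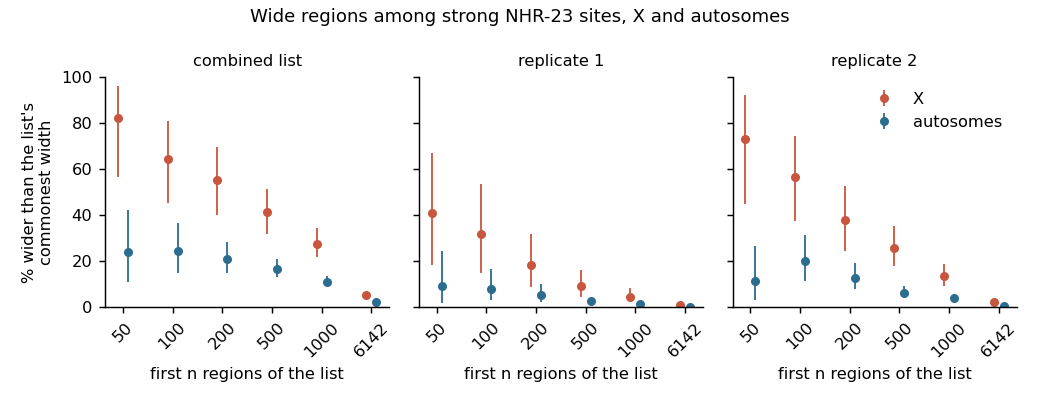
Percent of regions wider than the commonest width of their list (380 bp combined, 384 bp replicate 1, 364 bp replicate 2), for the first n regions by peak number; points are shares and bars exact 95% binomial intervals. X (red) lies above the autosomes (blue) in all 3 lists, with 64.5% against 24.6% for the first 100 combined regions.

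The widest X site was 949 bp long, from 17419728 to 17420676, with combined number 872 and replicate numbers 1821 and 476. It overlapped 3 peaks of replicate 1 and 1 of replicate 2. Next was the 928 bp region from 5148065 to 5148992, number 876 combined, 483 in replicate 1 and 1375 in replicate 2, which overlapped 3 and 2 replicate peaks. Each of these widest regions thus covered several separate calls of a replicate. The 790 bp region from 8036031 to 8036820 was combined number 41 and matched 1 peak in each replicate, numbers 32 and 56. All 10 X regions that the combined list gave in 2 rows were 379 bp or wider. The region from 14790184 to 14790734, for example, was listed as numbers 59 and 4818.

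Along the chromosome, combined sites taken all together were spread more evenly over 1 Mb bins on X than on any autosome. The 17 complete 1 Mb bins of X held 38 to 90 sites, with a median of 73, and the coefficient of variation (CV, the SD divided by the mean) was 0.241. On the autosomes the CV ran from 0.299 on chromosome I to 0.530 on chromosome V, where bins held 8 to 87 sites. The exact two-sided permutation p over chromosomes was 0.333 (adjusted p = 0.815). X had the lowest CV also with 500 kb bins (0.315, autosomes 0.332 to 0.578) and 2 Mb bins (0.201, autosomes 0.210 to 0.498). The strongest 25% of combined sites did not place X lowest, with a CV of 0.356 on X, 0.292 on chromosome I and 0.340 on IV. The full replicate lists, which include many weak peaks, differed from each other. In replicate 1 the CV on X was 0.180, above the 0.136 of chromosome I and the 0.158 of chromosome III. In replicate 2 X was again lowest at 0.212, with 0.229 on chromosome I next.

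The leanest parts of X were near its left end. The first and second bins held 38 and 50 sites, and the fourth, from 3000001 to 4000000, held 39. The fullest bin was the seventh, from 6000001 to 7000000, with 90 sites, followed by the fifth with 87, the fourteenth with 86 and the eleventh with 85. Altogether 8 complete bins had 80 sites or more and 5 had fewer than 60. The low bins were not only low in the combined list: the first had the fewest peaks of the complete bins in each full replicate list, 180 in replicate 1 and 137 in replicate 2, against bin means of 289 and 252. The fourth bin held 235 and 189.

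Strong sites followed a partly different course along X. The strongest 25% of the combined list (25% of all regions, by construction) held 322 X sites, 26.2% of them (23.8 to 28.8), against 23.2% to 25.8% on single autosomes. Over the complete bins their number ran from 8 to 30. The third bin, from 2000001 to 3000000, was richest, with 30 strong sites among 80 (37.5%), and the fifteenth had 26 among 81 (32.1%). The seventeenth was poorest in proportion, with 9 among 63 (14.3%), although it also held a site of combined number 44. The fourth bin was the only one of the 18 whose best site had a number above 200, at 336.

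**Figure D2:**
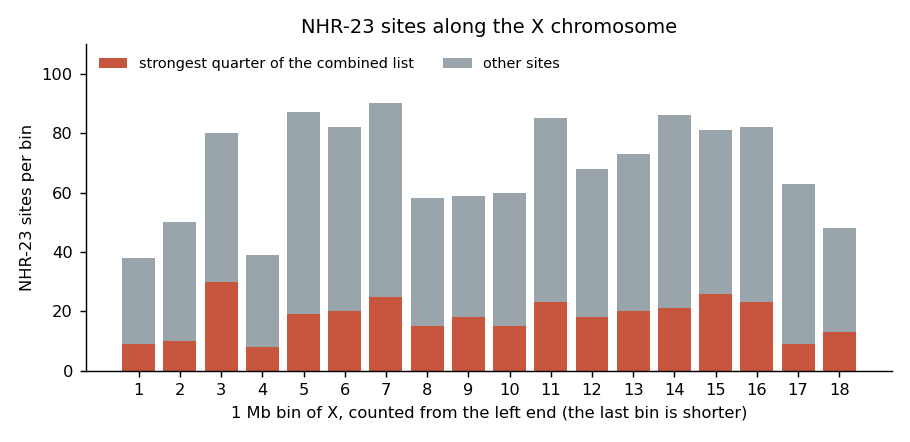
NHR-23 sites of the combined list in each 1 Mb bin of X, counted from the left end, with sites of the strongest 25% in red and all others in grey. Complete bins hold 38 to 90 sites, and the third bin has the most strong ones, 30.

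Neighbouring X sites were close together. The median distance between neighbouring centres was 5221 bp (interquartile range 1655 to 17136 bp), the shortest of the 6 chromosomes, where autosomal medians ran from 5349 bp on chromosome II to 6714 bp on I (exact permutation p = 0.333, adjusted p = 0.815). X did not keep this place when a replicate was left out or in the better-numbered 50% of the list, where at least 1 autosome had a shorter median. To leave a replicate out, the best 6142 regions of the other replicate took the place of the combined list. The difference of X from the autosomal median was -951 bp in the combined list and -335 bp without replicate 2. Density was not the highest: X had 69.4 distinct sites per Mb, below the 76.2 of chromosome III and above the other 4 autosomes. Of all X sites, 279 (22.7%, 20.4 to 25.1) had another within 1 kb, beside 21.7% of all nuclear regions and 18.5% to 24.2% on single autosomes. Another 597 had their nearest neighbour at 1 to 5 kb, 268 at 5 to 20 kb, and 85 (6.92%) had none within 20 kb, beside 7.67% of all nuclear regions. In the first and last of these shares X lay inside the range of the autosomes.

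Close X neighbours were also looked at as pairs. Among the 153 neighbouring pairs with centres within 1 kb, 69 included a site of the strongest 25% and 9 were made of a pair of such sites. Of X sites with a neighbour within 1 kb, 25.1% were in the strongest 25%, near the 26.2% of all X sites. On autosomes 22.0% of sites with such a neighbour were. In 27 cases neighbouring regions overlapped, and merging these left 1202 regions. Some close sites do not rest on separate replicate calls. In replicate 1, 56 X sites shared their matching peak with another X site, and in replicate 2, 51 did. The counts of pairs, overlaps and shared peaks are given for X only, so they are not read as particular to X.

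Isolated X sites included several of the strongest. Of the 85 with no neighbour within 20 kb, 30 were in the strongest 25% (35.3%, 25.2 to 46.4), a share chosen for report after it was seen. On autosomes 98 of 386 isolated sites were (25.4%), but the single chromosomes ran from 20% on V to 37.0% on III, so X was within their range (exact permutation p = 0.5, adjusted p = 0.5). With replicate 1 left out, that is in the best 6142 regions of replicate 2, the X share was 24.1%. The strongest isolated X site, from 2996824 to 2997414, was combined number 21 and lay 24.3 kb from the next. The second, from 5429289 to 5429752, was number 45 at 21.7 kb. The third, from 16056197 to 16056782, was number 61 at 20.8 kb, with replicate numbers 59 and 91. X sites with a neighbour within 1 kb had 25.1% in the strongest 25%, and those at 1 to 5 kb had 25.8%.

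Other X sites stood in runs, defined as 3 or more sites with each centre within 2 kb of the next. There were 77 such runs on X with 296 sites (24.1%, 21.7 to 26.6), beside 22.4% of all nuclear regions and 19.8% to 24.7% on autosomes. Of the 77, 48 were runs of 3, and 10 had 5 or more. The longest run held 16 sites over 15027 bp, from 6735537 to 6750563, while the longest on any autosome held 13. The next on X had 9 sites from 15272826 to 15281525 and 8 sites from 4140905 to 4148152. Runs held strong sites at nearly the rate of the rest of X, 27.0% against 25.9%.

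The run of 16 sites also filled the fullest 20 kb window of X. The fullest windows of single autosomes held 11 to 17 sites, the most on chromosome II (exact permutation p = 0.667, adjusted p = 0.815). With overlapping regions merged, the fullest window of X held 14 sites, and so did the fullest of any autosome. The X window was rich in strong sites. In that window 8 of 16 were in the strongest 25%, 6 were among the first 1000 numbers and 0 were in the weakest 25%. Its best site, from 6737357 to 6737937, was combined number 99, with numbers 212 and 52 in the replicates. Close behind were the regions from 6743660 to 6744314 (combined number 181), from 6741916 to 6742448 (303) and from 6749044 to 6749855 (367). Steps between neighbouring centres ran from 199 to 1934 bp with a median of 864 bp. All 16 overlapped a peak of each replicate, but a pair of them, from 6742946 to 6743145 and from 6743055 to 6743434, shared the same peak in both lists. The full lists had 28 peaks of replicate 1 and 29 of replicate 2 in the same 20 kb.

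The other crowded windows of X were weaker by median combined number, at 2731 to 4421, beside 1514 in the window of the run of 16. Some of them still held strong sites. The window from 4132520 to 4152519 held 11 sites, of which 2 were in the strongest 25% and 3 in the weakest, with a best number of 233. That from 4513818 to 4533817 also held 11, of which 5 were strong, with a best number of 358. A window from 14558038 to 14578037 held 10 sites, including combined number 73, but its median number was 4421. The fifth, from 15264570 to 15284569, held 10 with a best number of 354. All the sites of these 5 windows overlapped a peak of each replicate, as did 98.4% of all X sites. In each of the 5 windows, however, some neighbouring sites matched the same replicate peak. Their sites were therefore not all separate replicate calls. X had 5 separate 20 kb windows with 10 or more sites, holding 58 sites (4.72%), beside 2 to 6 windows on the autosomes with 2.35% to 7.18% of their sites.

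Gaps lay between the crowded stretches. X had 89 distances over 50 kb between neighbouring centres, which together took up 39.9% of its length, inside the autosomal range of 28.5% to 57.2%. The longest gaps of single autosomes ran from 143 kb on chromosome III to 757 kb on V, and that of X lay within this range. The longest on X was 237 kb, from 59361 to 295728, so that everything to its left held a single site, number 3394. The second, of 211 kb, ran from 1627311 to 1837687, with a strong site, number 151, at its left edge. The third, of 161 kb, ran from 12189640 to 12350128 between weak sites numbered 5950 and 4634. The 2 that followed measured 134 kb each, from 593645 to 727807 and from 8836104 to 8969490. Of the 5, 2 were thus in the first megabase.

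The gaps were not empty in the replicate lists. In the longest gap replicate 1 listed 6 peaks and replicate 2 listed 2, with best numbers of 19407 and 20930, and none of the 6 overlapped a peak of the other replicate. In the second, replicate 1 listed 22 peaks, best number 10269, and replicate 2 listed 3, best number 12112, and 2 of the 22 overlapped. In the fifth they listed 14 and 11, with best numbers of 5535 and 4129, and 5 of the 14 overlapped. The best peak in any of the 5 gaps was thus number 4129, and most of those of replicate 1 had no counterpart in replicate 2. Weak replicate 1 peaks often lacked a counterpart anywhere on X. Among numbers 10001 to 15000, 55.5% of X peaks overlapped a replicate 2 peak, and among 15001 to 20000, 41.8% did. Gap peaks were not compared with others of like number, so their low overlap is not read as a trait of gaps. Over all 89 gaps replicate 1 had 113 peaks per Mb and replicate 2 had 70.4, against 287 and 251 over the whole of X. Part of that difference is built in, since gaps were defined by the lack of combined sites and the combined list was made from the replicates.

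**Figure D3:**
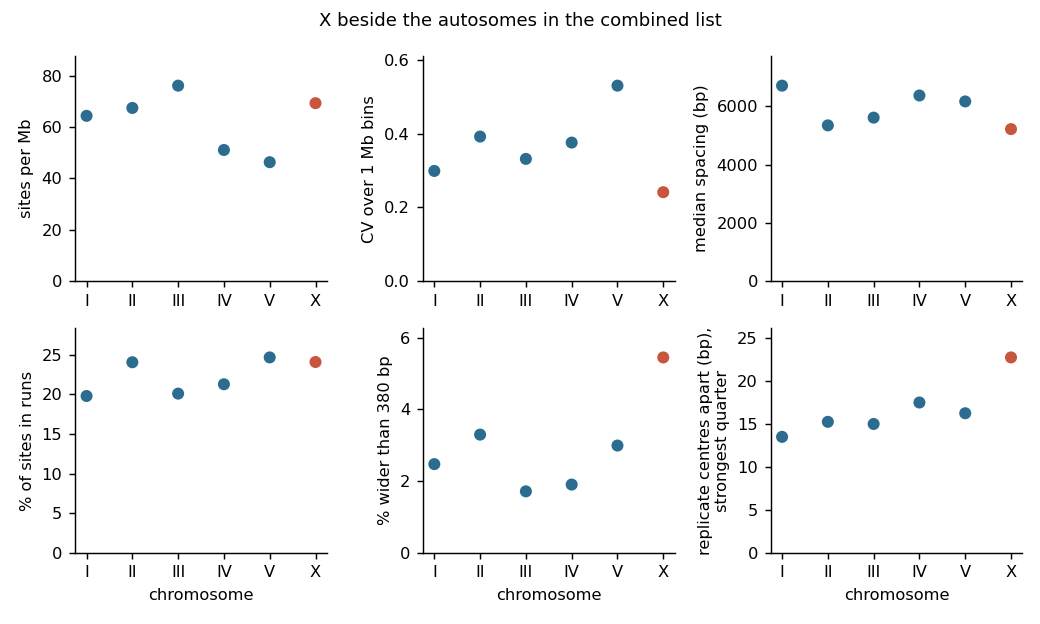
Values of 6 measures for each chromosome in the combined list, with autosomes in blue and X in red; each point is 1 chromosome and all axes start at 0. X has the lowest CV over 1 Mb bins (0.241), the shortest median spacing (5221 bp), the highest share of wide regions (5.45%) and the largest distance between replicate centres among strong sites (22.8 bp).

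Nearly every X site was found in both replicates. Of 1229 sites, 1209 (98.4%, 97.5 to 99.0) overlapped a peak of each by at least 1 bp, beside 98.5% of all nuclear regions and 97.9% to 99.0% on autosomes. All 322 of the strongest 25% did, and 279 of the 288 in the weakest. The combined list came from these replicates, so this recovery was largely built in. Only replicate 1 accounted for 9 X sites, of which the best was number 1787, from 11924203 to 11924322, number 1414 in that replicate. Only replicate 2 accounted for 11, of which the best was number 2766, from 15630644 to 15631023, number 3464 there. The X sites resting on 1 replicate were thus all outside the strongest 25%.

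Peak numbers of X sites were similar in the replicates. The median was 2837 in replicate 1 and 2955 in replicate 2, and 608 sites had the better number in replicate 1 while 601 had it in replicate 2. Across the 1209 sites the Spearman rho between replicate numbers was 0.647, given as a description because the sites share libraries and come from a list that names IDR, a comparison of ranks between replicates, in its source field; autosomal values ran from 0.603 to 0.657. The numbers differed by more than 2-fold at 419 sites (34.7%), beside 33.7% on autosomes. Within the strongest 25% the share was 34.5%. Within a part of the list rho depends on how the part was cut: it was 0.552 in the strongest 25% and below 0 in each of the other 3 parts. X sites among the first 2000 of both replicates numbered 307 (24.98%, 22.6 to 27.5), beside 23.5% of all nuclear regions and 21.6% to 24.9% on single autosomes.

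**Figure D4:**
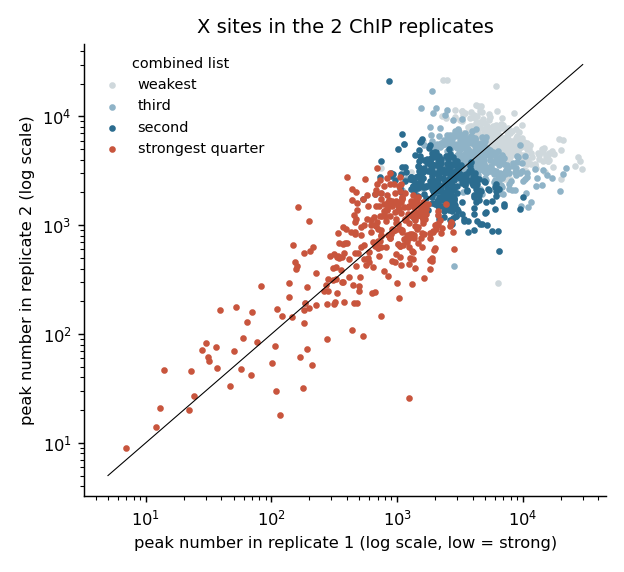
Peak number in replicate 1 (horizontal) and replicate 2 (vertical), both on log scales, for the 1209 X sites found in both; colours give 4 equal parts of the combined list by strength and the line marks equal numbers. Numbers rise together in both lists, but 419 sites (34.7%) differ by more than 2-fold, among them the site at 1237 and 26.

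A few X sites had very different strength in the replicates. The widest disagreement was inside the run of 16 sites, at 6743660 to 6744314, which was number 26 in replicate 2 but 1237 in replicate 1, a ratio of 47.6. In the opposite direction, the region from 11647925 to 11648304 was number 855 in replicate 1 and 21344 in replicate 2, a ratio of 24.96. The region from 11030994 to 11031605, combined number 483, was number 162 in replicate 1 and 1461 in replicate 2. At the first and second of these regions the replicate centres were 48.5 and 33 bp apart, so the difference was one of rank at nearly the same place. At the third they were 191 bp apart. The next in the first direction, from 15275519 to 15275730 with numbers 6333 and 296, had its replicate centres 203 bp apart and another X site 296 bp away. There the matched peaks were not at the same place.

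Replicate peak centres were farther apart at strong X sites than at strong autosomal sites. Over all X sites found in both, the median distance was 33 bp (interquartile range 13.5 to 68 bp), just above the autosomal range of 27 to 32.3 bp. In the strongest 25% it was 22.8 bp on X, and 13.5 bp on chromosome I to 17.5 bp on IV (exact permutation p = 0.167, the smallest possible; adjusted p = 0.292). X also had more wide sites, and the distance was taken again without the regions over 380 bp. It was then 22 bp on X and 13 to 16.5 bp on the autosomes. Among all regions narrower than 380 bp, 25.2% on X and 19.2% on autosomes overlapped several peaks of a replicate. At exactly 380 bp the shares were 32.3% and 33.7%, and above 380 bp they were 49.3% and 59.8%, with X lower. These shares cover sites of all strengths, not the strongest 25% alone. Whether width or such multiple peaks bear on the distance was not tested. Among the weakest 25%, X and the autosomes had medians of 59 and 56.5 bp. The comparisons of distance in the strongest 25% and of width were chosen after the values were seen.

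The replicate lists were also read from their own side. Nearly all strong peaks of a replicate entered the combined list, which was largely built in because that list came from the replicates. Of autosomal peaks among numbers 1 to 1000, 99.4% entered in replicate 1 and 99.9% in replicate 2. Of X peaks in that band, 208 of 209 (99.5%) entered in replicate 1 and 203 of 205 (99.0%) in replicate 2. The exceptions were a peak from 5953088 to 5953471, number 877 in replicate 1, whose counterpart from 5953226 to 5953383 was number 967 in replicate 2, and a peak of replicate 2 from 13348458 to 13348631, number 706. The first was thus found in both replicates and still absent from the combined list, with the nearest combined site 4013 bp away. The second had no counterpart in replicate 1 and a combined site 870 bp away. In the band from 4001 to 6000, the combined list took in 64.4% of X peaks of replicate 1 and, of replicate 2, 70.8%, beside 60.5% and 68.5% on autosomes.

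Weak X peaks of replicate 1 overlapped the combined list more often than autosomal ones in some bands. Among numbers 8001 to 10000, 25.9% of X peaks (21.4 to 30.8) overlapped a combined region, against 17.2% on autosomes and at most 19.0% on any of them (exact permutation p = 0.167, the smallest possible; adjusted p = 0.292). Among 25001 to 30000 the shares were 4.85% (3.42 to 6.65) and 2.35% (1.92 to 2.85). These bands were picked after the values were seen. In replicate 2 the band from 8001 to 10000 gave 16.3% on X and 15.7% on autosomes. X took up less of both lists toward their ends. Its portion of nuclear peaks was 21.3% among numbers 1 to 1000 of replicate 1 and 14.9% among 25001 to 30000. In replicate 2 it was 20.8% in the first 1000 and 16.0% among 20001 to 25000.

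**Figure D5:**
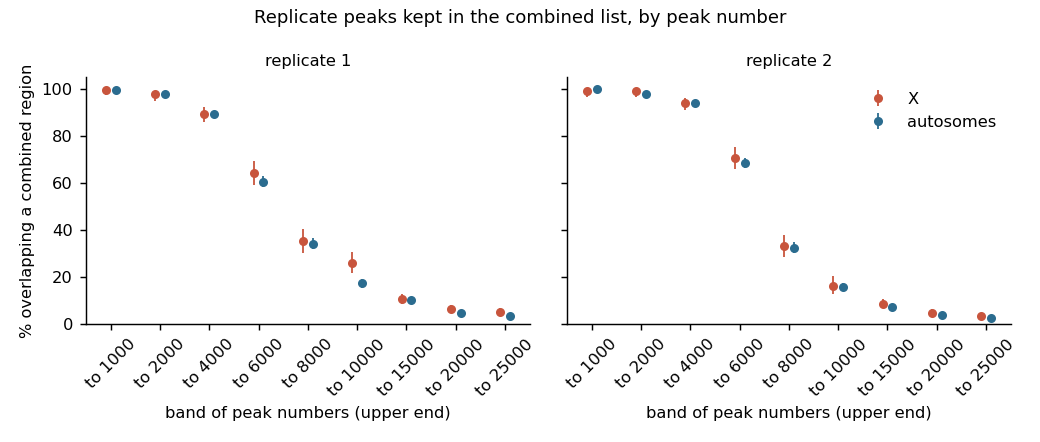
Percent of replicate peaks overlapping a combined region, by band of peak number (the upper end of each band is shown), for X in red and autosomes in blue, with exact 95% binomial intervals. Both fall with peak number, from 99.5% of X peaks in the first band of replicate 1 to 4.83% in the last one shown, and X differs most from the autosomes in the band to 10000 of replicate 1, 25.9% against 17.2%.

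At the end of the combined list, some X sites ranked unevenly in the replicates. The last X site, number 6176 from 6808652 to 6809031, was number 15066 in replicate 1 and 3089 in replicate 2, with replicate centres 288 bp apart. The one before it, from 6653186 to 6653565, carried numbers 17828 and 4532. The region from 5762266 to 5762645, number 6173, was more even at 7660 and 7823, with centres 2 bp apart. All of the last 5 X sites were 380 bp wide and had another X site within 4134 bp. The weakest 25% held 288 X sites, 23.4% of them (21.1 to 25.9), against 25.1% to 26.0% on the autosomes. The X share was below that of every autosome, a comparison not planned and not tested.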

How the data were processed

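The files used were the authors' deposited peak lists: 2 from the ChIP replicates and 1 combined list. Per the file headers, coordinates are in WormBase WS220. The source field of the deposited lists names SPP and IDR; no source used here gives versions, settings or the way of combining. Each row has a score given by the authors, constant in the combined list and at a ceiling in many replicate rows, so deposited peak numbers were used for order. Repeated rows were dropped, and mitochondrial peaks left out. A region matched the best-numbered replicate peak sharing at least 1 bp. Chromosomes ran to the last base of any peak. Shares have exact Clopper-Pearson 95% intervals, which cover counting error only and take regions as independent. X was compared with the 5 autosomes by exact two-sided permutation over 6 chromosomes, Benjamini-Hochberg adjusted over 11 measures and, separately, 7 added after the data were seen. Named regions were the 20 strongest and last 5 X sites, 5 fullest windows, 5 longest gaps, most discordant sites and strong replicate peaks missing from the combined list; the widest, isolated, run, single-replicate, repeated and overlapping examples were chosen after their values were seen. The members and lists were chosen with earlier results of these data known. No gene or sequence is given, because the only gene table used is on a different assembly. The functions were tested on simulated lists. Tools were scipy 1.17.1, numpy 2.4.6, pandas 2.3.3 and matplotlib 3.10.9 under Python 3.11.15.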

Additional observations from a re-analysis of the deposited data

How the results depend on the processing

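Of 66 alternatives over 14 measures, 59 kept X on the same side of the autosomal median and 7 moved it across. None of the comparisons could pass 0.05, so this concerns direction only. The X share in the strongest 25% went from above the autosomal median to below it (a difference of -1.13 percentage points) when the better-numbered 50% of the list was used. The share in runs differed by -1.27 points in that part of the list, and by -3.36 to 1.88 points without replicate 2 or 1. The length in gaps over 50 kb differed by -6.30 points in the better-numbered 50%, by -2.82 with gaps over 30 kb, by -4.97 with gaps over 100 kb, and by -0.701 to 0.805 without replicate 2 or 1. The cause was not tested. The low CV along X, the high share of wide regions and the larger distance between replicate centres kept their direction in all alternatives tried for each. The share of wide regions exceeded the autosomal median by 0.699 to 1.82 points when either replicate was left out. Leaving a replicate out meant using the best 6142 regions of the other, with that list's own commonest width, and not a remade combined list. No paired analysis was possible because only ChIP lists were used and each holds calls, not values per region to block on. With depth unknown, a region missing from a list may be unbound or undetected.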
